A study of Mus musculus with 6 samples.

Results

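The genes described here are 7 that serve the presentation of peptides by MHC class I: B2m, H2-D1, H2-K1, H2-T23, Tap1, Psmb8 and Psmb9. They were read on the hippocampus arrays of a study of HuD overexpressor mice. HuD, the product of Elavl4, is a protein of neurons that binds RNA. Every probe set whose annotation holds at least 1 of the 7 symbols was used, which gave 15 of the 12422 probe sets that are not controls. Of the 15, 11 carry a single gene symbol, for 6 of the 7 genes, and 4 carry several symbols. H2-T23 has no probe set of its own and is found only among those 4. The 6 samples are hippocampus total RNA, 1 array each, and keep the numbers of their titles. No label gives a genotype, transgene promoter, strain, age or treatment for any sample, or says whether animals were pooled. The samples were therefore left without groups, no sample is called transgenic or control, and no replicate checks a difference between 2 of them.

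MHC class I molecules display peptides from inside the cell to T cells and natural killer cells. The heavy chain, encoded here by H2-K1, H2-D1 or H2-T23, pairs with beta-2-microglobulin, the invariant light chain encoded by B2m. Peptides are cut by the proteasome, in which Psmb8 and Psmb9 can replace the constitutive catalytic subunits, and Tap1 with Tap2 carries them into the endoplasmic reticulum. Interferons and NF-kappaB are known to raise the transcription of these genes. In brain the class I genes are expressed at low levels, in glia and blood vessels and also in neurons, where they have been linked to synapse refinement.

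B2m, H2-K1 and H2-D1 are the members with a measurable probe set of their own, so the stretches before their starts are shown first. The sequences are the 250 bases before the gene start given by RefSeq (GRCm38.p6), written 5' to 3' on the gene's own strand. Capitals mark the letters that matched any of 6 motifs searched on both strands. These were the interferon response element core (GAAA, 2 bases of any kind, GAAA), an NF-kappaB form with GGG, 2 bases of any kind and TTCCC, an NF-kappaB form with GGG, 3 bases of any kind and TTCC, the GAS core (TTCNNNGAA), a CRE-like motif (TGACG) and the CCAAT box (CCAAT). The B2m stretch lies at chr2:122147437-122147686 on the plus strand, the H2-K1 stretch at chr17:34000348-34000597 on the minus strand and the H2-D1 stretch at chr17:35262844-35263093 on the plus strand. RefSeq gives 2 starts for H2-K1, and the one farther upstream was used.
B2m: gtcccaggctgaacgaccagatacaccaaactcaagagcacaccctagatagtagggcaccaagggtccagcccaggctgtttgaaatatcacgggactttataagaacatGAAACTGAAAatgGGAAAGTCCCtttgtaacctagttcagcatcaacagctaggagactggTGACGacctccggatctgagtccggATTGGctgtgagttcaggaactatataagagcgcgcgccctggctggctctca
H2-K1: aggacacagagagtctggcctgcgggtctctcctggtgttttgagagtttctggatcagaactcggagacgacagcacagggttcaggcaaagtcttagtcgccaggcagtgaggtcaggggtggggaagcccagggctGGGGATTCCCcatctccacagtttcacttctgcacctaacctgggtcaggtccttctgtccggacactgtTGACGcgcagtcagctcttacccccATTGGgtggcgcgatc
H2-D1: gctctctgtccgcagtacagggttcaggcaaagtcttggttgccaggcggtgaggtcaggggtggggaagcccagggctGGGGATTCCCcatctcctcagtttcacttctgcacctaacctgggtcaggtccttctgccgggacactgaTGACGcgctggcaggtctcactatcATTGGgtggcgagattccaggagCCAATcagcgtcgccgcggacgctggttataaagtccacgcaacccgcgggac

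In these windows no motif match overlapped another. B2m held an interferon response element core, GAAACTGAAA, from 139 to 130 bases before the start, and an NF-kappaB form on the opposite strand, read here as GGAAAGTCCC, from 126 to 117 bases before it. H2-K1 and H2-D1 held the same NF-kappaB letters, GGGGATTCCC, from 111 to 102 and from 171 to 162 bases before their starts. All 3 windows held 1 TGACG and at least 1 CCAAT box, and H2-D1 held 2 CCAAT boxes. The H2-K1 window before its other start, not shown, also held 2 CCAAT boxes. A match to these letters is a description of the window and not a binding site. Among all 32851 windows of the same length in the table, 2.98% held the interferon core, 1.53% the NF-kappaB form of the heavy chains, 4.65% the form found in B2m, 7.02% the GAS core, 17.8% TGACG and 33.8% CCAAT. In a global alignment with free end gaps, the H2-K1 and H2-D1 windows shared 166 of 190 paired bases (87.4%).

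The other members differed in these letters. Tap1 and Psmb9 are divergent neighbours whose starts lie 225 bases apart, at chr17:34187331-34187555, and this shared stretch is shown because it precedes both genes, on the strand of Tap1.
Tap1-Psmb9: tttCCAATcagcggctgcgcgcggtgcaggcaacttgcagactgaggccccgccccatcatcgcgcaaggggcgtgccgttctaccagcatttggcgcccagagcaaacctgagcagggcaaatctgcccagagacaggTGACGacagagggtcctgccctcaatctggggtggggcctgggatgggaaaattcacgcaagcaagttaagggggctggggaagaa

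That stretch held 1 TGACG and 1 CCAAT box and neither the interferon core nor an NF-kappaB form. The Psmb8 window held a GAS core (TTCCCAGAA) from 97 to 89 bases before the start. The H2-T23 window held an interferon core, TTTCTCTTTC as read on its own strand, and 1 CCAAT box. No match says only that these letters are not in the window.

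The deposited values are signal intensities on a linear scale. Signals were expressed relative to the array median, taken without control probe sets (59.9 to 63.3 in deposited signal). A floor of 0.2 was applied and log2 was taken, so that 0 is the array median. A probe set was counted as measurable if the median of its 6 samples exceeded the array median, which held for 6207 probe sets, and for 5 of the 15 members. The range is the highest sample minus the lowest on this log2 scale, or their ratio as a fold. The final letters of a probe set's name mark its kind. A plain name marks probes designed for 1 transcript, an f marks probes shared within a gene family, and an r marks a set made with relaxed design rules. Of the 15 members, 5 have plain names and 1 symbol, 5 carry an f and 1 symbol, 1 carries an r and 1 symbol, and 4 have several symbols. Only 1 of the 5 plain sets was measurable, that of B2m.

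B2m was read by 1 plain probe set (93088_at) and lay above the array median in every sample. From sample 1 to sample 6 its signals were 442.5, 493.0, 618.4, 377.0, 450.5 and 438.0. Sample 3 stood above the others and sample 4 below them, while samples 1, 5 and 6 lay close together. After scaling, the range was 0.79 (1.73-fold), the step from sample 3 down to the next sample was 0.36, and the step from sample 4 up to the next was 0.23. Without samples 3 and 4 the other 4 samples spanned 0.21.

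The heavy chain H2-D1 was read by 3 probe sets, all marked as shared within a family. The set 101886_f_at had signals of 233.7, 202.5, 290.1, 172.0, 242.1 and 257.6 in samples 1 to 6. Sample 3 was at the top and sample 4 at the bottom, as for B2m, with a range of 0.83 (1.78-fold), the widest of the measurable members. The set 97540_f_at had signals of 220.3, 232.4, 228.3, 154.7, 230.9 and 198.7. Here samples 1, 2, 3 and 5 lay within a narrow band and sample 4 stood alone at the bottom, 0.37 below the next on the log2 scale, in a range of 0.64 (1.56-fold). These sets of the same gene differed in samples 2, 3 and 6, after scaling. Sample 3 lay 0.36 above the set's own median in 101886_f_at and 0.09 above it in 97540_f_at. Sample 2 was second from the bottom in 101886_f_at and second from the top in 97540_f_at, and sample 6 the reverse. The last set, 97541_f_at, lay far under the array median, at 2.40 to 13.0, and says nothing of the gene's level.

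H2-K1, the heavy chain of the other classical locus, had 1 measurable set, 93120_f_at, also marked as shared. Its signals were 240.4, 240.8, 285.8, 229.5, 244.9 and 286.8 in samples 1 to 6. Samples 3 and 6 were high and nearly equal, and sample 4 was lowest by a small margin of 0.08 on the log2 scale. The range of 0.40 (1.32-fold) was the narrowest of the measurable members. The set 102161_f_at is annotated to 10 class I genes and pseudogenes, H2-K1, H2-D1 and H2-T23 among them, and reads no single gene. It had signals of 132.4, 146.1, 164.3, 121.2, 160.6 and 150.6, with a range of 0.52 (1.43-fold), sample 3 at the top and sample 4 at the bottom.

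**Figure D1:**
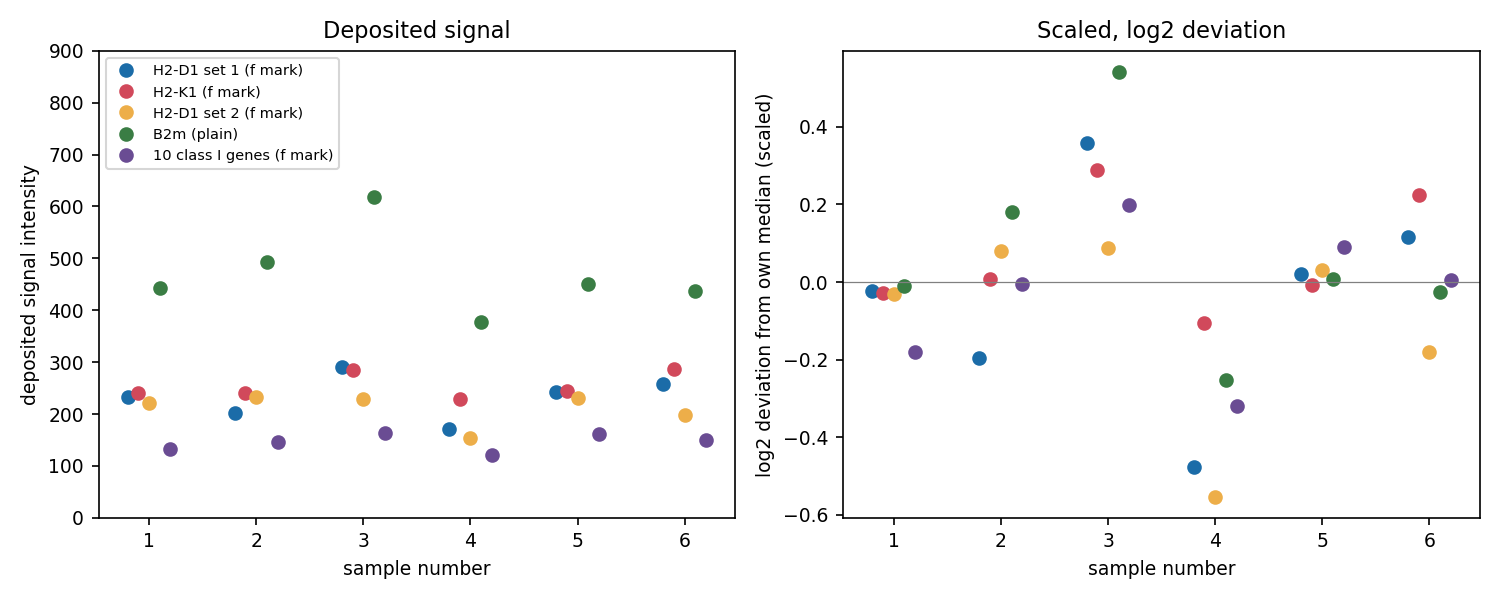
The 5 measurable probe sets of the class I genes by sample number, as deposited signal intensity on the left and as log2 deviation from each set's own median after scaling on the right; points are single samples, moved sideways to be seen. Sample 4 is lowest in all 5, while sample 3 is highest in B2m, in 1 H2-D1 set and in the set of 10 genes under every scaling, and in the other sets only after division by the array median.

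All 5 measurable probe sets were lowest in sample 4. They were so also in deposited signals, after quantile normalization and after division by the 75th percentile. Among all measurable probe sets, 20.0% were lowest in sample 4 (17.0% to 17.3% under those 3 other scalings). All 5 were highest in sample 3 after division by the array median, against 30.7% of all, but the other 3 scalings left 3 of 5 so, against 19.0% to 20.3% of all. The sets that changed were 93120_f_at of H2-K1, then highest in sample 6, and 97540_f_at of H2-D1, then highest in sample 2. Sample 3 had the lowest array median, 59.9, so division by the median lifted all of its values. Both traits together, sample 3 highest and sample 4 lowest, held for 5 of 5 members and for 7.83% of all measurable probe sets. This pair was known from an earlier account of these same data, so the count of members is a description and tests nothing. That pair was the most frequent of the 30 possible pairs, ahead of sample 3 highest with sample 5 lowest (7.48%). The 5 sets are not independent, since the family probe sets can read the same transcripts.

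**Figure D2:**
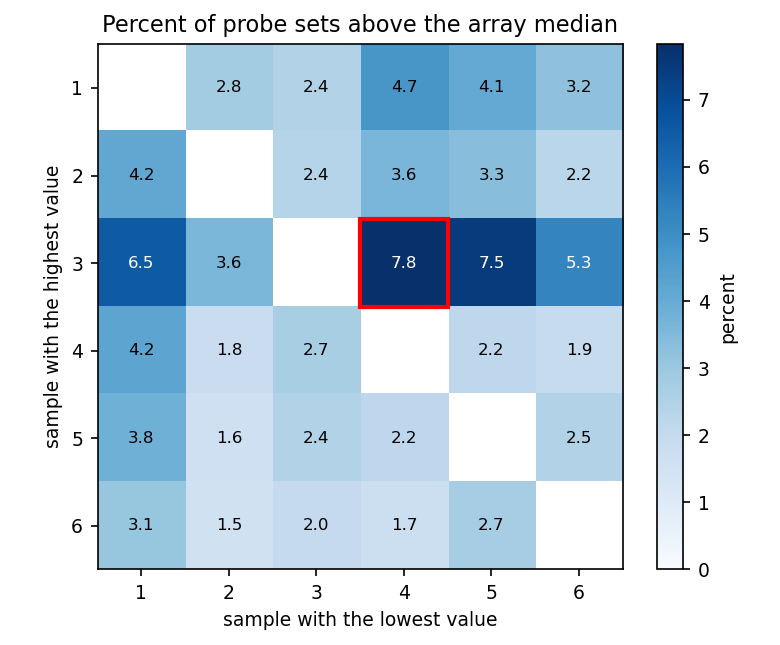
Percent of the 6207 measurable probe sets by the sample with the highest value (vertical axis) and the lowest value (horizontal axis), after division by the array median. The outlined cell, sample 3 highest and sample 4 lowest, holds 7.83% of all probe sets and all 5 measurable members, 3 of them under the other scalings. The outlined pair was known from an earlier account of these data.

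A range over 1.5-fold was reached by 3 of the 5 measurable members, B2m and the H2-D1 sets 101886_f_at and 97540_f_at, against 25.1% of all measurable probe sets. The median range of the 5 was 0.64, and that of all measurable probe sets 0.41, a comparison not matched on level. Without sample 4 no member passed 1.5-fold, and the share of all probe sets was 20.7%. B2m (0.57) and 101886_f_at (0.55) then lay just under that fold, whereas 97540_f_at fell to 0.27. Without sample 3 the count was 2, with B2m at a range of 0.43. With a fold of 2 in place of 1.5, none of the 5 passed, against 5.06% of all.

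**Figure D3:**
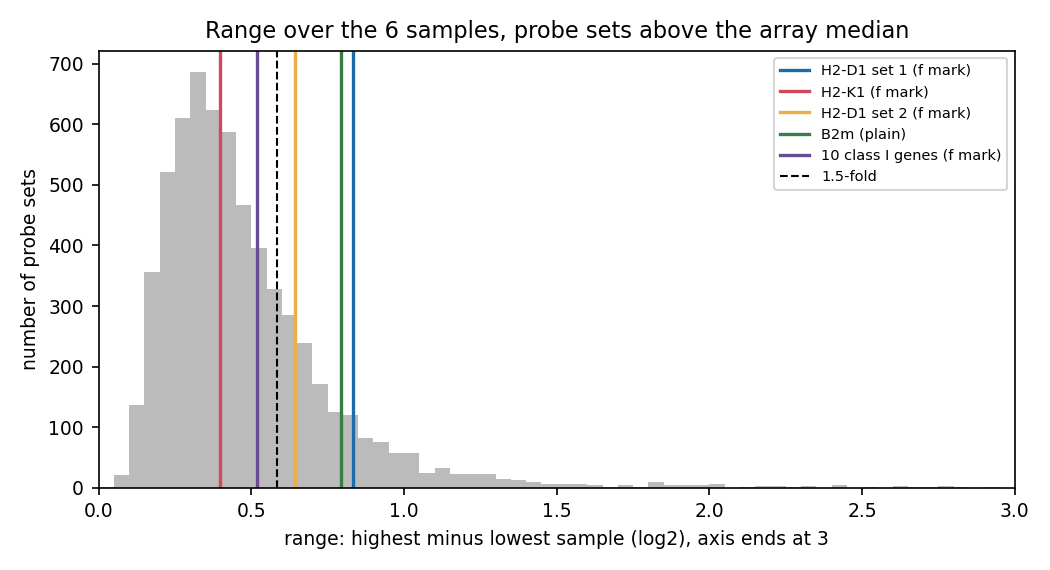
Number of measurable probe sets (vertical axis) by range over the 6 samples on the log2 scale (horizontal axis, ended at 3), with coloured lines for the 5 members and a dashed line at 1.5-fold. The members run from 0.40 for H2-K1 to 0.83 for an H2-D1 set, and 3 lie past the dashed line.

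Over the 6 samples, B2m was compared with each of the other 4 measurable members and, the same way, with all 6206 other measurable probe sets. An exact two-sided permutation test over the 720 orders of the samples was used, with Benjamini-Hochberg adjustment over the 6206. With the H2-D1 set 101886_f_at, Pearson's r was 0.77 (exact permutation p = 0.078, adjusted 0.57) and Spearman's rho 0.49 (exact permutation p = 0.36, adjusted 0.83). With the H2-D1 set 97540_f_at, r was 0.76 (exact permutation p = 0.10, adjusted 0.60). Its rho was 1, since both sets put the 6 samples in the same order after scaling, with an exact permutation p of 0.0028, the smallest that 720 orders can give, and 0.51 when adjusted. That shared order held only with division by the array median. It rested on a step of 0.009 between samples 3 and 2 of 97540_f_at. Under the other scalings sample 2 was highest in 97540_f_at and sample 3 in B2m. With H2-K1, r was 0.72 (exact permutation p = 0.094, adjusted 0.59) and rho 0.66 (exact permutation p = 0.17, adjusted 0.82). With the set of 10 genes, r was 0.82 (exact permutation p = 0.043, adjusted 0.53) and rho 0.71 (exact permutation p = 0.14, adjusted 0.78). No probe set of the 6206 passed an adjusted 0.05 by either measure, while 553 had an unadjusted p under 0.05 by Pearson and 261 by Spearman.

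An r over 0.7 was held by 4 of 4 members and by 15.3% of the 6206 probe sets. The cutoff of 0.7 was not part of the plan and lies just under the lowest r of the 4, 0.72, so the 4 of 4 is a description. With the other 3 scalings an r over 0.7 was held by 3 of 4, all but H2-K1, and by 8.35% to 9.07% of all. Without sample 4 it was held by 1 of 4 (18.2% of all), and without sample 3 by 2 of 4 (13.1%). Samples 3 and 4 lay farthest from the median of B2m. Over the 4 samples left without them, r became -0.93 with 101886_f_at, -0.35 with H2-K1, 0.15 with the set of 10 genes and 0.73 with 97540_f_at. An r over 0.7 with the first 3 of these was thus not seen without samples 3 and 4. Those samples were picked as farthest in B2m, whose other samples span only 0.21, so a fall of r is partly built in. The values over 4 samples were not tested, so they do not decide what any of the 4 relations rested on.

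The probe sets most like B2m were sought among 5638 measurable sets of 1 symbol, by the root mean square difference of the log2 deviations over the 6 samples. The nearest were Zmiz2 (0.07), Mien1 (0.07), Apc2 (0.09), Akap1 (0.09) and Sema6b (0.09), against a median of 0.27 for all candidates. Zmiz2, for example, had signals of 619.4, 754.2, 842.9, 589.5, 676.5 and 650.9. No heavy chain set was that near. Placed among the same candidates, H2-K1 would have come at rank 350 (0.17), the set of 10 genes at rank 423 (0.18), and the H2-D1 sets at ranks 819 (0.20) and 1702 (0.23). For the H2-D1 set 101886_f_at the nearest were Parl, Wars, Ttc39b, Fibp and Scp2 (0.09 to 0.11, median of all candidates 0.28). From it, the set of 10 genes would have come at rank 55, H2-K1 at 189, the other H2-D1 set at 420 and B2m at 434.

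The peptide-supply genes lay under the array median, where values are not shown to be above background. Tap1, the transporter subunit, had signals of 50.4, 51.2, 38.7, 52.3, 56.5 and 41.4 in its plain set (103035_at). Sample 3 was lowest here, and sample 5 highest, so the order was not that of B2m. A further Tap1 set with an r mark lay at 13.0 to 24.7 and was also highest in sample 5, but lowest in sample 1.

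Psmb8, a catalytic subunit of the immunoproteasome, had signals of 44.2, 35.6, 39.6, 45.4, 39.1 and 53.0. Sample 6 was highest and sample 2 lowest, and sample 4 was the second highest. Psmb9, its partner subunit, had signals of 9.60, 6.31, 19.3, 8.93, 8.99 and 7.44, with every value but that of sample 3 under the floor. None of the 3 plain sets of these genes reached the array median in any sample.

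The remaining members were dim as well. The only plain set of H2-K1, 97700_at, had signals of 52.1, 56.0, 46.3, 57.9, 27.5 and 59.8, with sample 5 alone at the bottom. An H2-K1 set with an f mark, 97125_f_at, had 49.8, 53.8, 72.9, 45.7, 67.3 and 16.7, with sample 6 alone at the bottom. It was above the array median in samples 3 and 5 only, and its range of 4.57-fold shrank to 1.22-fold when the array median was used as the floor. The set annotated to both H2-T23, a nonclassical heavy chain, and H2-T-ps (98472_at) had 35.7, 35.6, 35.9, 33.4, 40.2 and 45.3. Sample 4 was at the bottom and sample 6 at the top. The other sets of several symbols lay at 2.71 to 30.7 (5 genes) and 18.3 to 39.2 (4 genes). Of the 10 dim members, 6 had a range over 1.5-fold, against 49.0% of all probe sets at or under the array median.

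**Figure D4:**
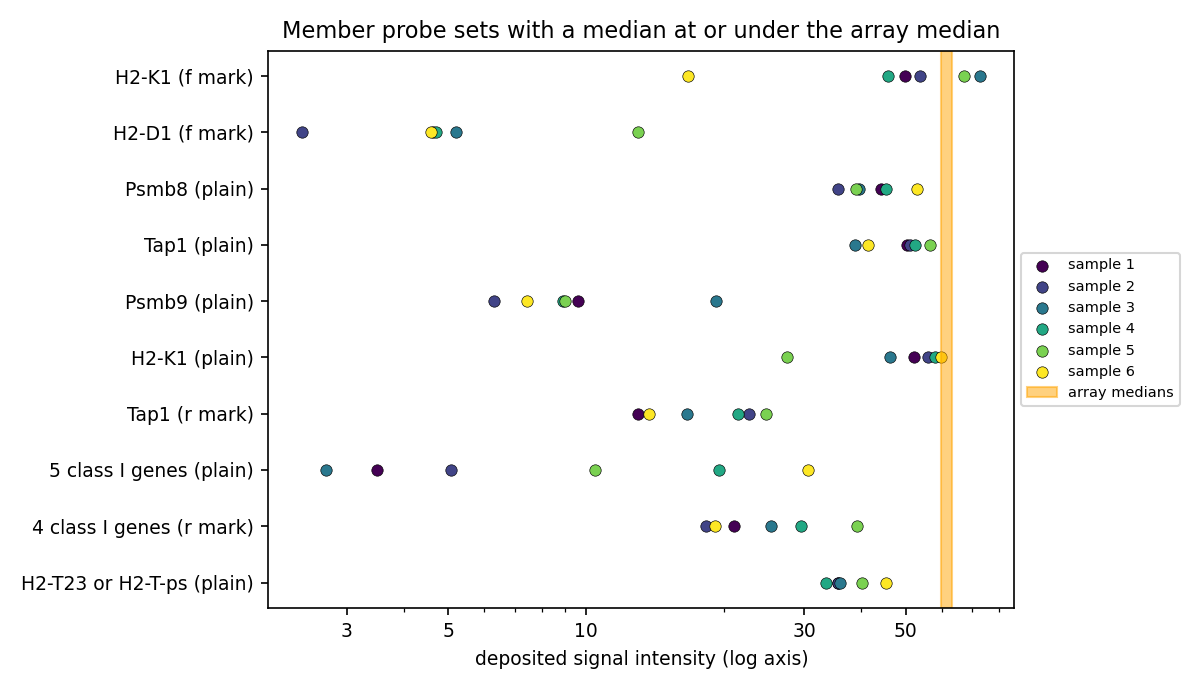
Deposited signal intensity (horizontal log axis) of the 10 member probe sets with a median at or under the array median, 1 point a sample, coloured by sample number, with a band for the array medians of 59.9 to 63.3. Only 2 values, samples 3 and 5 of an H2-K1 set, lie above the band, and the order of the samples differs from row to row.

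Other genes of the class I route came from a list of 35, of which 21 had a probe set of their own and 10 were measurable. The median range of the 10 was 0.41, equal to that of all measurable probe sets. A range over 1.5-fold was reached by 3 of the 10, against 25.1% of all. These 3 were heavy chain genes of the family, H2-Bl (1.92-fold), H2-Q4 (1.69-fold) and H2-Q10 (1.65-fold). Psme3, a proteasome activator subunit, was the only one of the 10 highest in sample 3 and lowest in sample 4, at 304.6 and 257.7, with median scaling. The peptide-loading chaperones went another way. Canx, calnexin, had its lowest value in sample 3 (174.2) and its highest in sample 4 (256.7), and so did Pdia3, the disulphide isomerase of the loading complex, at 322.1 and 444.4. Tapbp, tapasin, had a range of 1.35-fold, with sample 2 lowest (129.2) and sample 1 highest (178.9). Psme1 and Psmb10, the remaining interferon-inducible proteasome genes measured here, ranged 1.18-fold and 1.19-fold. Tap2 lay at 8.34 to 22.5 and Calr at 1.48 to 17.0, both far under the array median.

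The constitutive proteasome subunits that Psmb8, Psmb9 and Psmb10 replace were all measurable, with a median range of 0.36, and 0 of the 3 passed 1.5-fold. Psmb5 ran from 575.9 in sample 1 to 705.7 in sample 3, Psmb6 from 298.8 in sample 1 to 440.8 in sample 6, and Psmb7 from 498.8 in sample 6 to 554.4 in sample 4. For Psmb6, sample 2 was highest after scaling, at a range of 1.49-fold. None was lowest in sample 4.

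A wider look at the heavy chain family took every further probe set annotated only to class I heavy chain symbols, 24 in all, a list made after the values were seen. Of these, 12 were measurable, 3 of them highest in sample 3, 2 lowest in sample 4 and 1 both, a set shared by H2-T9, H2-T10 and H2-T22 with a range of 1.22-fold, after division by the array median. With quantile normalization 2 of the 12 were highest in sample 3, and in deposited signals or with the 75th percentile 1 was, with 2 lowest in sample 4 in each case and none both in the last pair of scalings. Among all measurable probe sets, 30.7% were highest in sample 3 and 20.0% lowest in sample 4 after division by the array median. The median range of the 12 was 0.74, against 0.41 for all, and 8 passed 1.5-fold, against 25.1% of all. Several of the 12 lay close to the array median, H2-Q10 and H2-M2 with a median of 0.27 among them. The comparison is not matched on level. The nonclassical H2-T18 was lowest in sample 4 (136.2) but highest in sample 5 (230.8). H2-K2, in a set with an f mark and a median under the array median, had signals of 28.0, 19.6, 184.4, 18.3, 163.2 and 47.7. Only samples 3 and 5 lay above the array median there, the same 2 samples as in the H2-K1 set 97125_f_at.

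Regulators of class I transcription varied without a common order. Of 18 interferon signalling genes, 15 had a probe set of their own and 7 were measurable, with a median range of 0.63. A range over 1.5-fold was reached by 4 of the 7, against 25.1% of all measurable probe sets. The widest was Irf7, an interferon-induced transcription factor, at 76.7, 53.9, 82.1, 36.7, 83.5 and 47.2, which sat close to the array median. Under all 4 scalings sample 4 was lowest. Sample 3 was highest with median scaling or quantile normalization and sample 5 with the other scalings. Tyk2, a Janus kinase, went from 78.1 in sample 2 to 169.5 in sample 4, and Jak1 was narrowest at 1.17-fold. Irf1, which had a median under the array median, ran from 24.7 in sample 4 to 83.1 in sample 6.

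Of 40 interferon-induced genes, 32 had a probe set of their own, 6 were measurable, with a median range of 0.43, and 1 passed 1.5-fold, Ifitm3 (1.78-fold). Ifitm3 was low in samples 4 (95.6) and 5 (99.7) and peaked in sample 6 (169.3). Ifi27 had 344.4, 351.9, 418.2, 326.9, 372.1 and 347.8, highest in sample 3 and lowest in sample 4, with a range of 1.35-fold. The narrowest was Ly6e at 1.09-fold. Among 9 MHC class II genes, 2 were measurable. H2-DMa, a peptide-loading factor of class II, had 271.4, 289.3, 313.8, 260.4, 269.9 and 304.7, again highest in sample 3 and lowest in sample 4, and Cd74, the invariant chain, ran from 81.2 in sample 5 to 123.7 in sample 6.

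**Figure D5:**
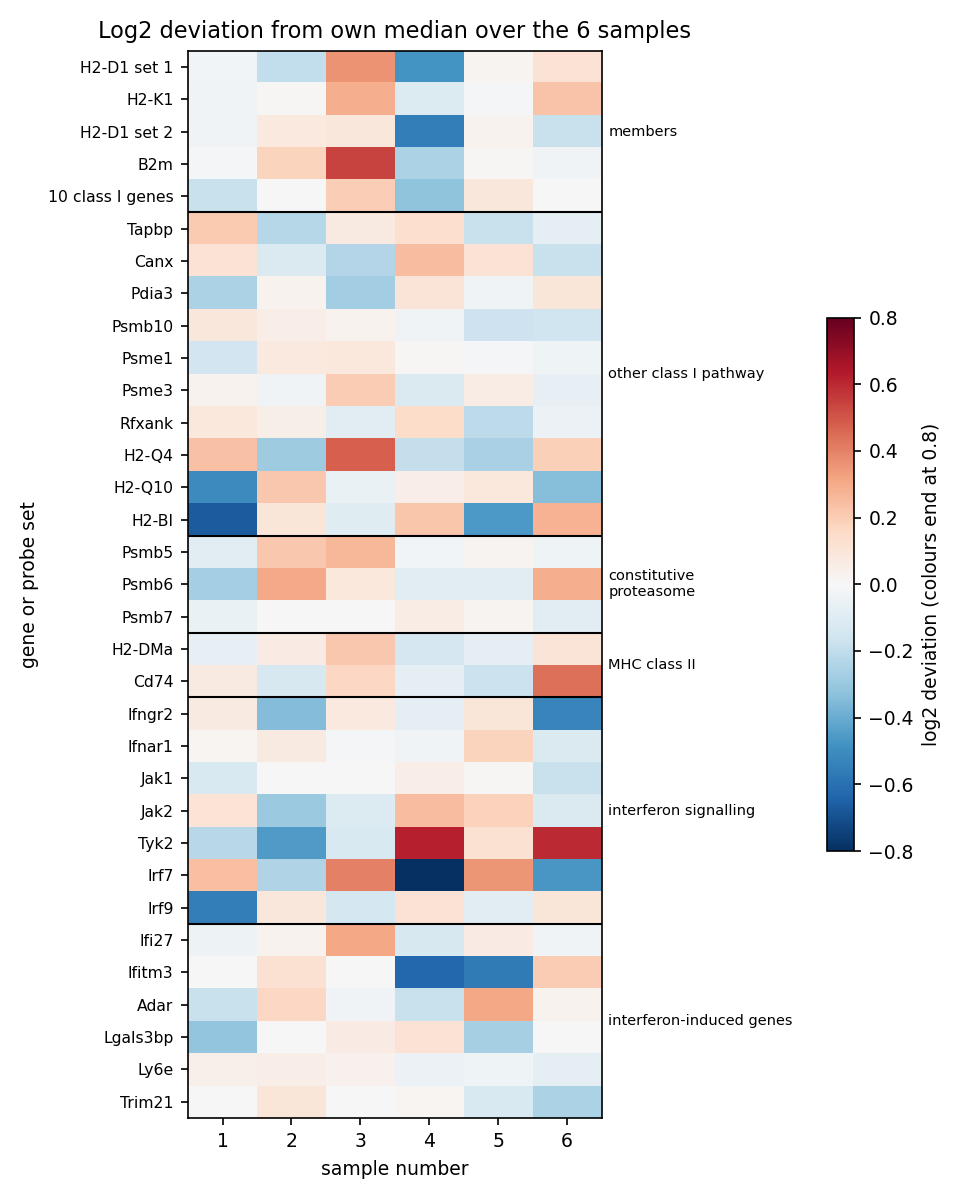
Log2 deviation from each row's own median over the 6 samples (columns, by sample number) for the 5 measurable members and for measurable genes of the related lists, after division by the array median; red is above and blue below the median, with colours ended at 0.8. The member rows are blue in sample 4, whereas Canx, Pdia3 and Tyk2 are red there.

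Cells that could carry class I transcripts were followed through their markers; in whole tissue, fewer cells of a type and less RNA per cell cannot be told apart. Of 12 microglial markers with a probe set of their own, 9 were measurable, with a summed signal of 2487 (sample 5) to 2631 (sample 6), 2629 in sample 3 and 2539 in sample 4. None of the 9 passed 1.5-fold. After division by the array median 4 were highest in sample 3, against 30.7% of all measurable probe sets. Laptm5, which encodes a lysosomal membrane protein, had 259.2 in sample 3 and 184.7 in sample 4, its highest and lowest values under all 4 scalings, with a range of 1.48-fold. Of 13 endothelial markers, 5 were measurable, with a summed signal of 2268 in sample 3, the lowest, to 2567 in sample 6, and 2330 in sample 4. T and natural killer cell markers were under the array median in 10 of 11 cases, Cd3e, Cd3g, Cd3d, Cd8a and Cd8b1 among them, Cd4 being the exception. None of the 8 measured receptors of class I, Pirb and Klrd1 among them, was measurable. Astrocyte markers (8 of 8 measurable) summed to 5868 in sample 1 to 6203 in sample 4, and myelin markers (7 of 8) to 4712 in sample 1 to 6542 in sample 5. Meningeal markers (7 of 11) summed to 3238 in sample 5 to 7138 in sample 2, choroid plexus markers (2 of 6) to 43.2 in sample 1 to 1960 in sample 6, and blood markers (1 of 6, Hba-a1) to 865.7 in sample 3 to 1357 in sample 6. Hippocampal neuron markers were measurable for 10 of 11 genes, Prox1 being the exception, and summed to 9848 in sample 3 to 11478 in sample 5. These sums rest on the brightest genes and hide wider moves: 5 of 8 astrocyte, 5 of 7 myelin, 5 of 10 neuron, 4 of 7 meningeal and 2 of 5 endothelial markers passed 1.5-fold. Of all measurable probe sets, 25.1% did. Among astrocyte markers, Gfap (563.6), Aldoc (2888) and S100b (225.6) were highest in sample 3 while Aqp4 (502.1), Slc1a2 (57.0) and Slc4a4 (92.7) were lowest there. The part of these cells in the class I values was not tested.

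Of 4 controls read at both ends, 2 had their highest 3' to 5' ratio in sample 3. Pyruvate carboxylase had a ratio of 3.56 there and 1.97 in sample 4, and the transferrin receptor had 3.47 against 2.85. Both of these ratios rest on weak 5' signals. That of the transferrin receptor was 30.4 to 43.0, under the array median in every sample and so not shown to be above background. That of pyruvate carboxylase was 64.0 in sample 3, close to the array median of 59.9. Beta-actin and Gapdh had their highest ratios in sample 1 (1.27 and 0.86), with 1.21 and 0.82 in sample 3 and 1.19 and 0.81 in sample 4. The part of these ratios in the class I values was not tested.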

How the data were processed

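The authors deposited 1 table of signal intensity per probe set for 6 arrays; per the labels all are hippocampus total RNA. Scanner, summary method and scaling were not stated in the sources used here. The mean between the 2nd and 98th percentile was 150.0 on every array. Detection calls were not used here, so a value under the array median is not shown to be above background. Precision is limited by the number of arrays.

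Gene symbols came from the platform's annotation table: 10833 have 1 symbol, 396 several and 1193 none, and the symbols of the 6 member genes with a set of their own matched the RefSeq table (GRCm38.p6) by identifier. Genes of other lists were represented by their probe set with the highest mean. Genes were named by list membership, by the widest or narrowest range in a list, or as nearest in pattern. The members and lists were chosen with earlier results of these data known. Alternatives covered scaling, floor, filter, fold, background and leaving out samples; the shares of sample pairs, of gaps and of r over 0.7 by setting were added after the values were seen. Scripts were tested on simulated data (Python 3.11, numpy 2.4.6, pandas 2.3.3, scipy 1.17.1). Protein likeness of the heavy chains was not analysed here. The samples have no groups, so no test compares groups.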

Additional observations from a re-analysis of the deposited data

Results flagged for a closer look

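Within the 15 member probe sets, 3 had a sample whose gap to the nearest other sample took up an unusually large part of the whole range, on the scaled log2 scale without the floor. That is 3 of the 10 dim members, against 9.4% of all dim probe sets, and 0 of the 5 measurable ones, against 6.4%; chance flags about 1 in 20. The 15 sets are not independent, and the 6 samples are not replicates of a group. In the plain H2-K1 set 97700_at, sample 5 (27.5) lay below the other samples, with a gap of 0.733 of the range. In the H2-K1 set 97125_f_at, sample 6 (16.7) lay below them, with a gap of 0.657. In Psmb9, sample 3 (19.3) lay above the others, with a gap of 0.652, though the other 5 values are under the floor used for ranges. The medians of all 3 sets lay under the array median.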

How the results depend on the processing

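The 4 correlations with B2m missed an adjusted 0.05 in the alternatives run and were above 0 in them, but 2 fell below 0 when samples 3 and 4 were left out together. Without each sample in turn they ran from 0.50 to 0.87 and 0.66 to 0.93 (H2-D1 sets 101886_f_at and 97540_f_at), 0.32 to 0.96 (H2-K1) and 0.70 to 0.92 (10 genes). The set of 10 genes gave no value when only sets above the 75th percentile were kept. The number of members highest in sample 3 and lowest in sample 4 was 3 of 5 with quantile normalization, no scaling or the 75th percentile, and the share of all probe sets was 5.03% with the first and 5.02% with the second of these. Leaving out sample 1, 2, 5 or 6 cannot lower this number, since a set highest in sample 3 and lowest in sample 4 stays so. With median scaling it was 5 in each of these cases, against 10.05% to 11.31% of all probe sets. It is not defined without sample 3 or 4. Members past the fold numbered 9 of 15 with no expression filter, against 37.1% of all probe sets. With a fold of 0.32 on the log2 scale they numbered 5 of 5 (68.7% of all), and with a fold of 2 they numbered 0 (5.06%). Without single samples they numbered 0 to 3 (19.2% to 22.2% of all). The share of all past 1.5-fold was 13.8% with an offset of 0.5 of the array median and 13.4% when only sets above the 75th percentile were kept. Averaging all of a gene's probe sets, those under the array median included, gave a range of 0.49 for H2-D1 and 0.65 for H2-K1. No paired analysis was possible because the samples have no groups. The causes of these shifts were not tested.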
